A study of Mus musculus with 3 samples.

Results

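The genes described here make, cut and clear the amyloid precursor protein, and they were measured in the choroid plexus epithelium (CPE) of 3 mice. They are the precursor *App* and its relatives *Aplp1* and *Aplp2*, the secretases *Bace1* and *Bace2*, the γ-secretase subunits *Psen2* and *Ncstn*, the insulin-degrading enzyme *Ide*, and *Itm2b*, which encodes the BRI2 protein. Members were chosen by name, as all array probes that carry the symbol of 1 of these 9 genes, and amounted to 17 of 41174 probes and 9 of 18620 genes that the array holds by RefSeq symbol. The CPE was laser dissected from frozen brain sections of 3 healthy adult wild type C57BL/6 mice, with no treatment, and its RNA was amplified and labelled with the red dye Cy5. On each of 3 arrays it was set against a common reference labelled with the green dye Cy3, which was RNA of C57BL/6 retinal pigment epithelium and choroid (RPE/choroid), the pigmented cell layer behind the retina and the vascular layer under it. The reference was 1 RNA, so its biological spread is in none of the errors, and since dyes were not swapped a preference of a probe for 1 dye stays in every ratio.

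The amyloid precursor protein is a membrane protein that can be cut in alternative ways. α-Secretases cut it within the amyloid-β segment and prevent its release, whereas a cut by β-secretase (BACE1) followed by γ-secretase sets amyloid-β free. γ-Secretase is a complex of presenilin, nicastrin, APH1 and PEN2. Amyloid-β is then degraded by proteases such as the insulin-degrading enzyme or carried by binding proteins across barriers, of which the CPE, the barrier between blood and cerebrospinal fluid, is one.

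In brief, 3 of the 9 genes differed from the reference beyond the threshold. *Aplp1* was 14.2-fold higher in CPE and *Bace2* 6.31-fold lower. *Ncstn* was higher as well, with a fold that is not firm because its reference signal lay near the background. *Bace1*, *Psen2*, *Aplp2*, *Ide* and *Itm2b* did not pass, and the direction of *App* depended on the probe. Values refer to the brightest probe of a gene over both channels unless another is named. A ratio is the log2 of CPE over reference after background correction and loess normalization, and the threshold was a change of at least 2-fold together with an adjusted p under 0.05 (limma, Benjamini-Hochberg over all probes tested). Over all genes tested by their brightest probe, 20.2% passed, 9.04% as higher and 11.1% as lower in CPE. A list of 9 genes is too short to read the 3 calls as different from that share. Over all probes tested, 17.3% passed, with 7.09% higher and 10.2% lower. Among these, 41.1% were higher in CPE, and this became 67.0% when arrays were centred on their median in place of loess, which moved the median of all probes from −0.04 to 0.09. Of the 17 member probes, 16 could be tested, 3 were higher and 3 lower. The plot of ratios by mouse gives each of them.

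**Figure D1:**
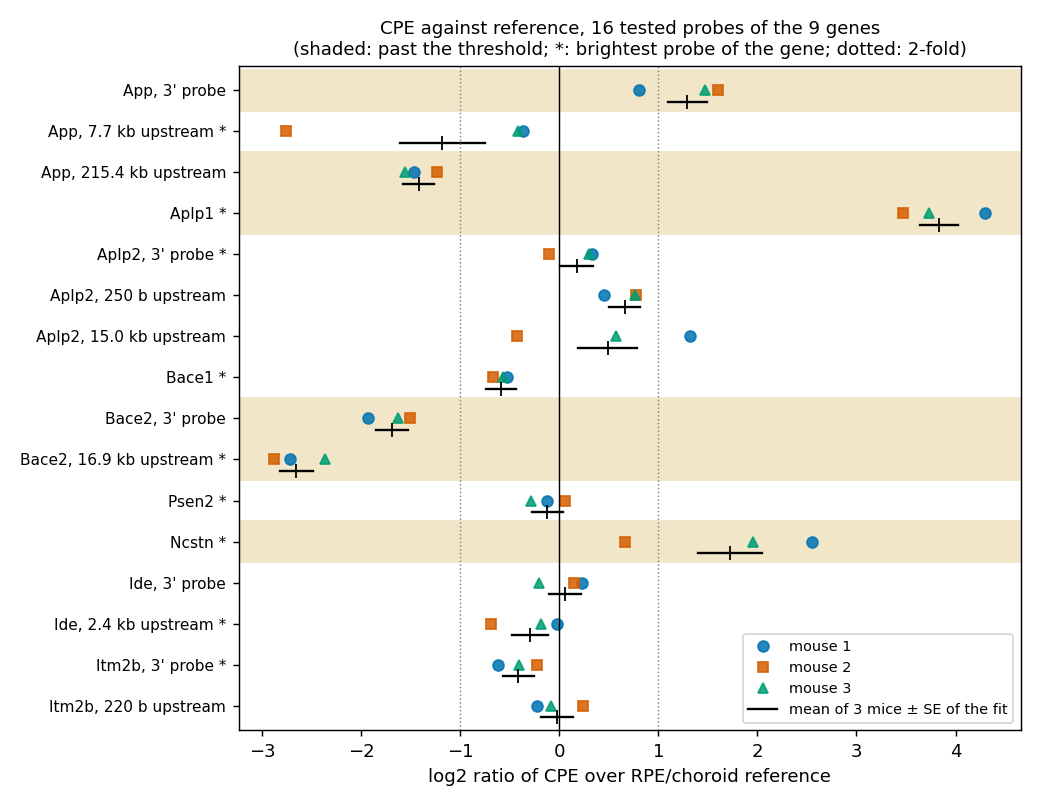
Log2 ratio of CPE over the RPE/choroid reference (horizontal axis) for the 16 tested probes of the 9 genes (vertical axis), ordered within a gene by genomic distance from the probe nearest the 3′ end. Symbols are the 3 mice, the bar is their mean ± SE of the fit, and shading marks probes past the threshold. *Aplp1* lies between 3.47 and 4.30 in every mouse, both *Bace2* probes lie below −1.5, and mouse 2 stands apart at −2.76 for the upstream *App* probe.

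Detection varied between the arrays. Of all probes, 46.0% to 85.6% were well above background in CPE, lowest in mouse 2 and highest in mouse 3, and in the reference channel 68.6% to 84.2%. The median CPE intensity was 137.5, 103.1 and 682.3 in mice 1, 2 and 3, and that of the reference 174.1, 168.9 and 377.9. Raw intensities of dim probes, and sums that hold them, are therefore not on 1 scale across arrays. The array quality weights of limma, used as an alternative, were 1.705, 1.009 and 0.58, lowest for mouse 3. Of 11 CPE markers on the array 10 were higher than in the reference, with a median ratio of 2.66, and all 11 ranked in the highest class of CPE probes. Of 10 markers of RPE and melanocytes 9 were lower, and all 7 photoreceptor markers were lower. In such bulk samples, fewer cells of a type and less RNA per cell cannot be told apart.

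A second reading of each gene is its rank. The intensity of each probe in CPE was averaged over the mice on a log2 scale and ranked over all probes, and the study's classes call a rank above percentile 90 high, 50 to 90 moderate, 10 to 50 low and under 10 very low. By their brightest probe, 6 of the 9 genes were in the high class, against 23.0% of all tested genes. These were *Aplp1* at percentile 99.3, *Aplp2* at 99.1, *Itm2b* at 98.95, *App* at 98.3, *Psen2* at 92.2 and *Ide* at 91.8. *Bace1* at 84.4, *Ncstn* at 73.8 and *Bace2* at 70.4 were moderate. A rank does not order genes by transcript number, because probes hybridise with different strength. The 9 genes were also chosen with earlier results of these data known. Their share in the high class is therefore not read as a finding. The 2 lowest of the high genes lay close to the limit, and *Ide* fell to 89.3 in mouse 2. When only probes well above background in all CPE samples were ranked, *Psen2* lay at 82.6 and *Ide* at 81.7, which left 4 genes in the high class.

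**Figure D2:**
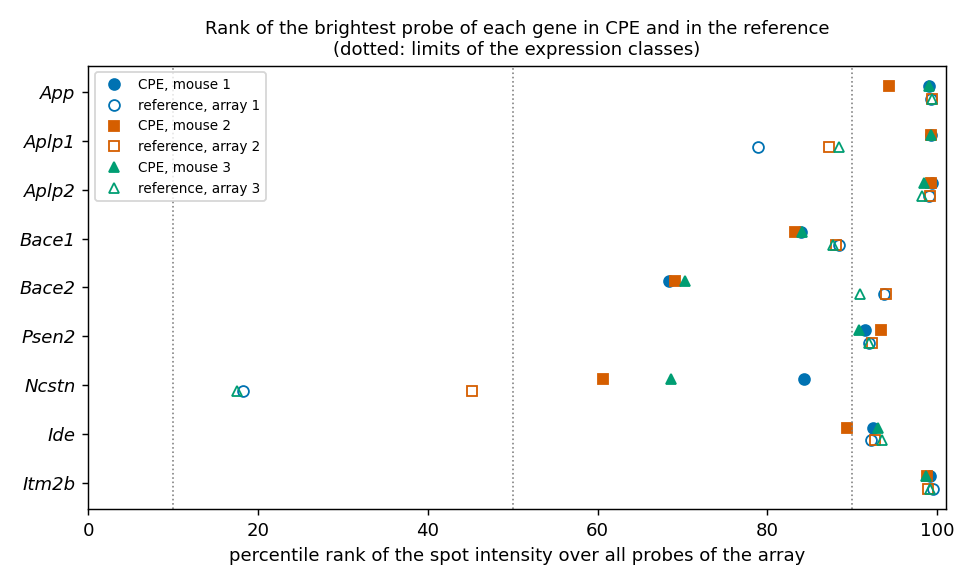
Percentile rank of the spot intensity over all probes of an array (horizontal axis) for the brightest probe of each of the 9 genes (vertical axis), with filled symbols for CPE by mouse and open symbols for the reference by array. *Aplp1*, *Bace2* and *Ncstn* show the widest gaps between CPE and reference ranks, whereas *Psen2* and *Itm2b* nearly coincide. Narrower gaps separate *Bace1*, at 83.2 to 84.1 in CPE against 87.8 to 88.4, and *App*, at 94.3 to 99.1 against 99.3 to 99.4. *Ncstn* in the reference lies between 17.5 and 45.2, near the background.

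*Aplp1*, the amyloid precursor-like gene best known from neurons, had the largest ratio of the 9 genes. Its probe (chromosome 7, 30143794 to 30143853, minus strand, mouse build mm8) gave CPE spot intensities of 25693, 17795 and 18668 in mice 1, 2 and 3, against 607, 1011 and 876 in the reference on the same arrays. Every CPE value was above every reference value, and the lowest reference value lay on the array with the highest CPE value. The log2 ratios were 4.30, 3.47 and 3.73, with a mean of 3.83 ± 0.19 (SE, n = 3; adjusted p 1.562e-05, limma). In rank the gene stood at percentile 99.28 to 99.33 in the 3 mice and at 78.9 to 88.4 in the reference. It was past the threshold in all 11 alternative settings, at 3.60 to 4.60, although the setting with the 3′ probe reuses its only probe. Of 8 neuron markers 5 were lower in CPE and 0 higher than in the reference, and their summed CPE intensity was 2699 to 7258 against 14870 to 16669 in the reference. Of 4 tested oligodendrocyte markers 2 were higher, *Cnp* among them, and the summed intensity of the list was 6044 to 10995 in CPE against 2917 to 3797 in the reference. The part of either cell type in the *Aplp1* ratio was not tested.

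*App* itself gave opposite values at its different probes. The brightest probe (chromosome 16, 84846270 to 84849130, minus strand) covers a longer genomic stretch than the oligonucleotide itself, as a probe across a splice junction does. Its CPE intensities were 21275, 2711 and 14747, while the reference stayed at 10893, 10798 and 10644. Mouse 2 was thus the low sample, and the reference on its array was not. The ratios of −0.37, −2.76 and −0.42 had a mean of −1.18 ± 0.43 (SE, n = 3; adjusted p 0.0643, limma), which did not pass the threshold. Without mouse 2 the mean was −0.39 (adjusted p 0.193), and without mouse 1 it was −1.59 and passed (adjusted p 0.0294), so that 2 genes were then lower in CPE.

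The probe nearest the 3′ end of *App* (84838579 to 84838638) lies 7691 bases downstream. There the CPE intensities were 9096, 13781 and 8851, and the reference gave 2311, 2661 and 1794. All CPE values were higher than all reference values, and mouse 2 was the brightest. The mean ratio of 1.29 ± 0.20 (SE, n = 3; adjusted p 0.00193, limma) passed as higher in CPE, with 0.80, 1.60 and 1.47 in the 3 mice. Within a mouse, the upstream probe was below the 3′ probe by 1.17, 4.36 and 1.89 on the log2 scale, so that the probes differed in every mouse and most in mouse 2. Of the other *App* probes, which were designed on cDNA clones, 1 lay 215434 bases upstream of the 3′ probe. This probe was dim, well above background in 2 of 3 CPE samples, and it was lower in CPE at −1.42 ± 0.16 (SE, n = 3; adjusted p 0.000429, limma). The remaining one, 57813 bases upstream, was not well above background on any array in either channel and was not tested. *App* was in the high class by both bright probes, at percentiles 98.3 and 98.4.

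**Figure D3:**
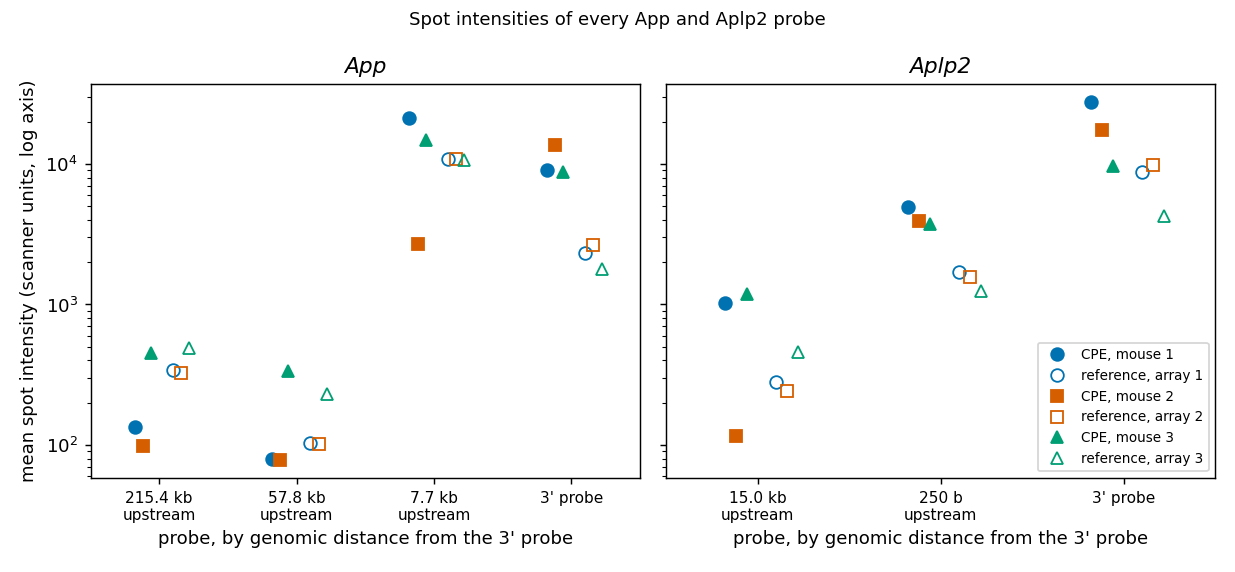
Mean spot intensity (scanner units, log axis) of every *App* and *Aplp2* probe, ordered by genomic distance from the probe nearest the 3′ end, with filled symbols for CPE by mouse and open symbols for the reference by array. At the *App* probe 7691 bases upstream mouse 2 lies at 2711 against 14747 and 21275 in the other mice, whereas the 3 reference values overlap.

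Such a low value of mouse 2 was also found at some further probes. Its log2 ratio differed from the mean of the other mice by −2.37 at the bright upstream *App* probe, −1.59 at *Ncstn*, −1.37 at the *Aplp2* probe farthest from the 3′ end and −0.59 at the brightest *Ide* probe. The *Ncstn* probe is the only one of its gene. At the 3′ probes of *App*, *Ide*, *Itm2b* and *Bace2* the difference was 0.47, 0.14, 0.29 and 0.27. At those of *Aplp2* and *Aplp1* it was −0.42 and −0.55, and for *Aplp1* mouse 1 deviated more, at 0.70. At further upstream probes mouse 2 differed by 0.27 (*App*, 215434 bases), 0.17 (*Aplp2*, 250 bases), 0.39 (*Itm2b*) and −0.33 (*Bace2*). Values of mouse 2 below and above the other mice were thus found at both upstream and 3′ probes. Mouse 2 also had the fewest CPE probes above background, and the part of this in its values was not tested. The 3 genes whose ratios in the 3 mice were most like those of the bright *App* probe, among 11464 genes, were *Rpl4*, *E130201H02Rik* and *Atp6v1c1*, with root mean square differences of 0.20, 0.22 and 0.23 on the log2 scale over 3 arrays. Each was low in mouse 2, at −2.68, −2.69 and −2.50, which follows from their choice by likeness to this probe.

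*Aplp2*, the widely expressed relative, did not pass the threshold with any of its 3 probes. The brightest, which is also nearest the 3′ end (chromosome 9, 30899153 to 30899212, minus strand), gave 27871, 17562 and 9732 in CPE and 8759, 9835 and 4291 in the reference. The raw CPE value was the brighter one on each array, but loess, which removes a dye difference that depends on intensity, left ratios of 0.33, −0.11 and 0.29. The mean of 0.17 ± 0.16 (SE, n = 3; adjusted p 0.442, limma) had a 95% interval of −0.21 to 0.56, and it was 1.08 with median centring, past the threshold. A probe 250 bases upstream gave 0.66 ± 0.16 (adjusted p 0.0136), under 2-fold. The third, 14999 bases upstream, gave 1.32, −0.42 and 0.57 in the 3 mice and was not above background in mouse 2.

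Promoters are shown for *Aplp1* and *Ncstn*, the precursor and γ-secretase genes of the 9 that passed the threshold, and for *App* for comparison. They are taken from RefSeq (build GRCm38.p6), 250 bases before to 50 after the start. A total of 7 of the 9 genes had an entry. Capitals mark the GC box, the letters GGGCGG on either strand, which is found in 35.7% of 32851 such windows.
*Aplp1*, chr7:30445533-30445832, minus strand: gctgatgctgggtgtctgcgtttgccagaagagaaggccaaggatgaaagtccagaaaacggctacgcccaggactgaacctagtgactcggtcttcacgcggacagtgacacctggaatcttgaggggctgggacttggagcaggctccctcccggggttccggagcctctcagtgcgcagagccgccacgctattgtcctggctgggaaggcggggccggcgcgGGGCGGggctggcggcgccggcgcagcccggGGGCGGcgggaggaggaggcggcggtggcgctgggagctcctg
*App*, chr16:85173658-85173957, minus strand: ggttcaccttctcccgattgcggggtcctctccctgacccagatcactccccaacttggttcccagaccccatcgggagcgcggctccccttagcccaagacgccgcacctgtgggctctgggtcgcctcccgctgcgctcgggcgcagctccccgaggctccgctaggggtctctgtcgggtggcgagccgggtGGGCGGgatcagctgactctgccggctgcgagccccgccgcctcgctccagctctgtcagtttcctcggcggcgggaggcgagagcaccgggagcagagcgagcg
*Ncstn*, chr1:172082700-172082999, minus strand: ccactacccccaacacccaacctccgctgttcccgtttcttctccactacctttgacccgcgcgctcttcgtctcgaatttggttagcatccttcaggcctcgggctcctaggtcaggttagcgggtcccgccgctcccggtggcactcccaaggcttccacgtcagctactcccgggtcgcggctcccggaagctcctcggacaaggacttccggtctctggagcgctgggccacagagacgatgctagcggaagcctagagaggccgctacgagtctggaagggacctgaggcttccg
The *Aplp1* window holds 2 GC boxes, that of *App* 1 and that of *Ncstn* 0. CG dinucleotides number 26, 30 and 25, where the median of all windows is 7. The E-box CACGTG (7.15% of windows) and the TATA box TATAAA (13.6%) were searched on both strands and occur in none of the 3. Matching letters describe the window and are no evidence of a bound factor.

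Of the β-secretases, only *Bace2* passed the threshold. It encodes a protease related to BACE1 that is best known from tissues outside the brain, and it was lower in CPE. Its brightest probe (chromosome 16, 97526815 to 97526874, plus strand) gave 455, 266 and 716 in the 3 mice against 1645, 1642 and 1462 in the reference, with no overlap. The mean ratio was −2.66 ± 0.17 (SE, n = 3; adjusted p 3.482e-05, limma), with −2.72, −2.88 and −2.37 in the mice. The probe nearest the 3′ end, 16870 bases downstream, passed in the same direction at −1.69 ± 0.16 (adjusted p 0.000222), although it was dimmer, at 116 to 481 in CPE and 413 to 551 in the reference. Its 481 came from mouse 3, where it ranked at percentile 23.9, against 45.2 and 53.9 in mice 1 and 2. Over 11 alternative settings *Bace2* passed each time, at −2.97 to −1.69. *Bace1*, the β-secretase of neurons (chromosome 9, 45612953 to 45613012, plus strand), gave CPE intensities of 1266, 692 and 1376 and reference intensities of 990, 922 and 1019. The mice were close together, at −0.53, −0.67 and −0.57. The mean of −0.59 ± 0.15 (SE, n = 3; adjusted p 0.0171, limma) corresponds to 1.51-fold, which is below the 2-fold limit, and with median centring it was −0.03.

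Of the γ-secretase subunits, *Ncstn*, which encodes nicastrin, was higher in CPE. Its probe (chromosome 1, 173904876 to 173904935, minus strand) gave 1121, 137 and 1185 in CPE and 160, 155 and 264 in the reference. Mouse 2 was the low CPE sample, and its raw value lay below that of the reference on its array. In rank CPE stood at percentile 84.3, 60.6 and 68.6 in mice 1, 2 and 3. By rank mouse 3 was thus nearer to mouse 2 than to mouse 1, unlike its raw value. The reference was well above background on 2 of 3 arrays. Ratios were 2.55, 0.66 and 1.95, with a mean of 1.72 ± 0.32 (SE, n = 3; adjusted p 0.00496, limma). The gene passed in 9 of 10 alternative settings, at 1.31 to 3.72, of which the highest came from the scanner's own ratio. It did not pass when limma tested against a 2-fold change itself (adjusted p 0.337), and it was not tested where both channels had to be above background. *Psen2*, the presenilin 2 gene (chromosome 1, 182063710 to 182063769, minus strand), gave 2670, 2161 and 2167 in CPE and 1404 to 1486 in the reference. After normalization the ratios were −0.13, 0.05 and −0.29, and the mean of −0.12 ± 0.16 (SE, n = 3; adjusted p 0.577, limma) had a 95% interval of −0.49 to 0.24, but it was 0.54 with median centring.

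Further subunit genes of the complex were added from a list. *Aph1a*, *Aph1b* and *Aph1c*, alternative forms of the scaffold subunit APH1, were higher in CPE at 1.73 ± 0.17, 1.03 ± 0.16 and 1.28 ± 0.20 (SE, n = 3; adjusted p 0.000264, 0.00232 and 0.00213, limma). Each of the 3 mice had a positive ratio for each gene, from 0.76 to 1.98. *Aph1b* and *Aph1c* are near-identical copies, so their probes may share signal, and *Aph1b* lost the threshold without mouse 1 and without mouse 2. Of its 3 tested probes 2 passed. *Psenen*, which encodes PEN2, had a ratio of 0.27 (adjusted p 0.196) and did not pass. In all, 4 of 7 subunit genes were higher and 0 lower, with a median of 1.03 against −0.003 over all genes. Over all genes 9.04% were higher and 11.1% lower. With the test against a 2-fold change itself, *Ncstn*, *Aph1b* and *Aph1c* no longer passed, which left *Aph1a*.

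*Ide* encodes the zinc protease that degrades insulin and amyloid-β. Its brightest probe (chromosome 19, 37336707 to 37337348, minus strand) gave 2996, 1261 and 2730 in CPE against 1490, 1518 and 1656 in the reference. The ratios of −0.03, −0.69 and −0.18 had a mean of −0.30 ± 0.18 (SE, n = 3; adjusted p 0.228, limma) and a 95% interval of −0.72 to 0.12. The 3′ probe, 2411 bases downstream, gave 0.06 ± 0.16 (adjusted p 0.806), and with median centring the brightest probe gave 0.34. *Itm2b*, whose product BRI2 binds the precursor protein, was among the brightest probes of both tissues, at percentile 98.95 in CPE and 99.2 in the reference. Its probe nearest the 3′ end (chromosome 14, 72096961 to 72097020, minus strand) gave 22809, 12022 and 11029 in CPE and 13677, 7639 and 7863 in the reference. The mean ratio was −0.42 ± 0.16 (SE, n = 3; adjusted p 0.0739, limma), with a 95% interval of −0.79 to −0.05. A probe 220 bases upstream gave −0.02 ± 0.16 (adjusted p 0.926), and with median centring the brighter one gave 0.47.

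A further 61 genes of precursor processing and amyloid-β clearance, the subunit genes just described among them, were read from lists by their brightest probe. Of 58 tested, 10 were higher and 4 lower in CPE, and 29 of the 61 were in the high class. Over all genes tested 9.04% were higher, 11.1% lower and 23.0% in the high class, and the 14 calls lie near the 20.2% called over all genes. The 61 include genes not tested, whereas the 23.0% is over tested genes alone. Since the lists were chosen with earlier results of these data known, their share in the high class is not read as a finding. The median ratio of the 58 was 0.24. With median centring 27 passed, and with the test against a 2-fold change 7 did. *Ace*, *Aph1a*, *Cd36*, *Furin*, *Lrp2*, *Trem2* and *Ttr* passed in each of 11 alternative settings. *Furin* and *Ttr* have 1 probe, so for them the setting with the 3′ probe repeats the main value. None of the 11 settings read the *Lrp2* and *Trem2* probes that did not pass, whose ratios reached −0.15 and −0.89.

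None of 3 α-secretase genes passed. *Adam9* was in the high class at percentile 97.99, and *Adam10*, the main α-secretase, was low at 36.8 and well above background in 2 of 3 CPE samples. All 3 genes listed with *Itm2b* were in the high class. *Furin*, the convertase that trims BRI proteins, was higher at 1.79 ± 0.15 (SE, n = 3; adjusted p 0.000131, limma), while the relatives *Itm2a* and *Itm2c* had ratios of 0.50 and 0.89, under 2-fold.

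Of 11 tested proteases that degrade amyloid-β, 2 were higher. *Ace*, the angiotensin-converting enzyme, gave 3.21 ± 0.18 (SE, n = 3; adjusted p 2.174e-05, limma) and *Thop1*, a metallopeptidase of peptide hormones, 1.78 ± 0.26 (adjusted p 0.00162). The reference of *Thop1* was dim, at 188, 196 and 390, and its ratios were 2.27, 2.12 and 0.96 in mice 1, 2 and 3. *Thop1* did not pass with the test against a 2-fold change itself. The lysosomal cathepsins *Ctsb* and *Ctsd* did not pass and ranked at percentiles 99.87 and 99.90, and *Ece1* and *Plat* were also high. *Mme*, which encodes neprilysin, had a ratio of 0.12 (adjusted p 0.568) and a moderate rank of 56.4. Neither *Mmp9* nor *Mmel1* stood above background in a CPE sample.

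Of 17 tested binding proteins and receptors in clearance, 2 were higher and 4 lower. *Ttr*, the transthyretin gene that marks the CPE, was saturated in all CPE samples and was at least 6.32-fold higher by the mean of the 3 arrays (adjusted p 3.728e-05, limma). *Lrpap1*, a chaperone of lipoprotein receptors, was higher at 1.08 ± 0.19 (SE, n = 3; adjusted p 0.00371), and it did not pass without mouse 1. The endocytic receptor gene *Lrp2* was lower at −2.96 ± 0.16 (adjusted p 1.828e-05), the scavenger receptor *Cd36* at −2.23 ± 0.19 (adjusted p 0.000133) and the myeloid receptor *Trem2* at −2.46 ± 0.16 (adjusted p 4.524e-05). Probes of a gene disagreed here, since 2 of 4 tested *Lrp2* probes and 1 of 2 *Trem2* probes passed. Macrophage markers were also lower, 4 of 5, with summed intensities of 10036 to 12901 in CPE and 38553 to 45034 in the reference, and their part in the *Trem2* and *Cd36* ratios was not tested. *Cst3*, the protease inhibitor cystatin C, was lower at −1.12 ± 0.16 (adjusted p 0.00126), although it ranked at percentile 99.86 in CPE, and it did not pass with median centring or with the scanner's own ratio. It was saturated in 1 CPE sample, so the ratio may be too low. *Apoe* and *Clu*, the main apolipoproteins that carry amyloid-β, did not pass and ranked at 99.97 and 99.91. *Apoe* was saturated in 2 CPE samples and *Clu* in 1, so their ratios may be too low. Other high genes were *A2m*, *Gsn*, *Lrp1*, *Vldlr* and *Abca1*, at percentiles 92.7 to 98.5.

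Of 19 tested adaptors and sorting proteins of the precursor, 2 were higher. *Gga1*, a trafficking adaptor of BACE1, gave 1.44 ± 0.23 (SE, n = 3; adjusted p 0.00222, limma) and *Tmed10*, a cargo protein of the secretory pathway, 1.16 ± 0.15 (adjusted p 0.000913), while the *Tmed10* probe nearest the 3′ end gave 0.07. The reference of *Gga1* was dim, at 245, 230 and 448, and its ratios were 1.775, 1.778 and 0.781 in mice 1, 2 and 3. Neither gene passed with the test against a 2-fold change itself. The high class held *Tmed10*, *Rtn3*, *Rtn4*, *Vps35*, *Picalm*, *Gga2* and *Sort1*, at percentiles 91.7 to 99.5. *Sorl1*, a sorting receptor of the precursor, was low at 41.4 and well above background in 1 of 3 CPE samples. The plot of the further pathway genes gives those past the threshold and further γ-secretase subunits by mouse.

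**Figure D4:**
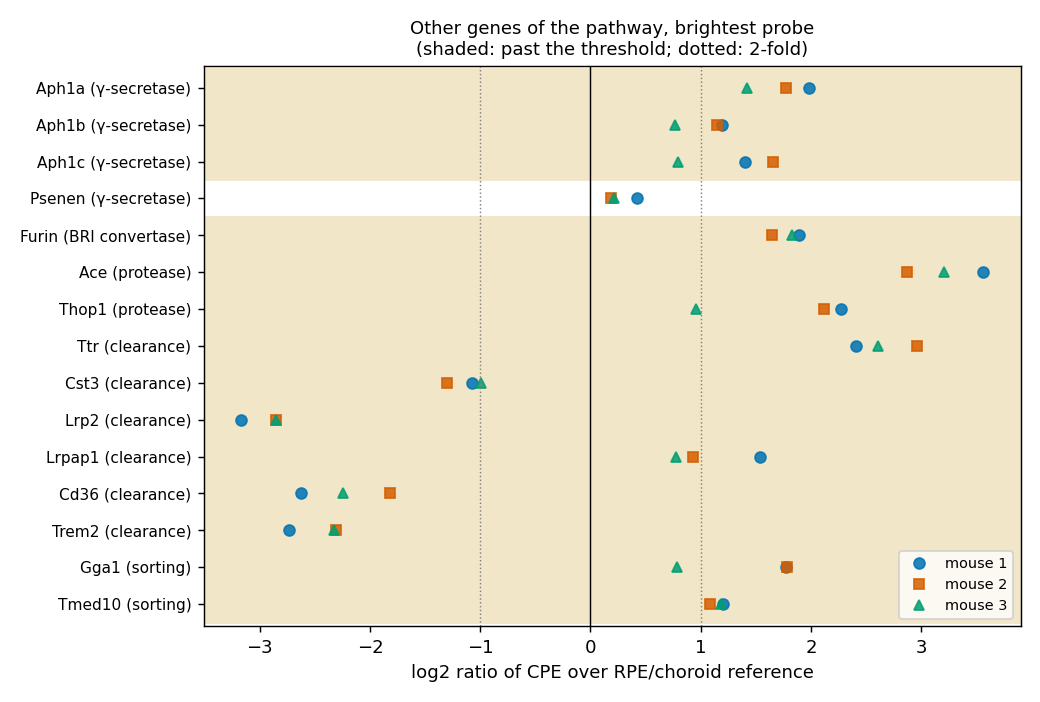
Log2 ratio of CPE over the RPE/choroid reference (horizontal axis) by mouse (symbols) for 4 further γ-secretase subunit genes and for all further pathway genes past the threshold (shaded), by their brightest probe. Every mouse lies on the same side of 0 for each of the 14 shaded genes, from *Ace* at 2.87 to 3.56 to *Lrp2* at −3.17 to −2.85.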

How the data were processed

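RNA of laser-dissected CPE (Cy5) of 3 mice, which form 1 group, was hybridised with a common RPE/choroid reference (Cy3) on Agilent arrays. Slides were not shared by arrays. The authors made the deposited scanner tables with Agilent Feature Extraction 9.5.3.1 and, per the labels, R 2.14.0 and limma. Per the file headers, these hold intensity values of both channels on a linear scale, a background intensity, flags, and the log10 ratio of the processed signals. A further deposited table gives log2 values, which followed the CPE channel and not the ratio (Spearman's rho over spots 0.998 to 0.999) and were used as an alternative.

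The members and lists were chosen with earlier results of these data known. With R 4.3.3 and limma 3.58.1, intensities were corrected with normexp (offset 50), loess normalized within arrays with control and outlier spots left out, and averaged per probe. Testing was limited to the 25847 probes that stood well above background in every array of 1 channel or of both. The model had an intercept alone, with moderated errors and Benjamini-Hochberg adjustment. Ranks used uncorrected log2 red intensities after Aquantile. Saturated or undetected probes got a bound: the brighter channel's mean against the dimmer channel held at or above the lowest detected signal. The number of arrays limits the precision. Errors cover no source of spread beyond the 3 mice, and the moderated fit draws each probe's spread toward that of all tested probes. The SE is therefore not the plain error of 3 values. It was 0.43 for the bright *App* probe, with a standard deviation of 1.37 between mice, and 0.15 for *Bace1*, with 0.07. Accessions of 23374 probes (56.8%) matched RefSeq, and the other probes kept the name in the file. A gene was read by its brightest probe over both channels. Named genes are the 9 members with every probe, further pathway genes past the threshold or in the high class, and the 3 genes most like *App*; *Adam10*, *Mme*, *Mmp9*, *Mmel1*, *Itm2a*, *Itm2c* and *Sorl1* were named after their values were seen. Probe coordinates were taken from the scanner files (mouse build mm8), with exons and introns not given here. Alternatives were other background corrections, normalizations, filters, probes and tests, and leaving out each mouse. The fit was tested on simulated data. Some genes of the lists are counted but not reported by name here. Human arrays were not analysed here.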

Additional observations from a re-analysis of the deposited data

How the results depend on the processing

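Of the ratios of the 9 genes under the alternatives, 89 kept their direction and their side of the threshold. A further 5 changed direction, 3 came to pass and 1 no longer passed. For *Aplp1*, *Aplp2*, *Bace1*, *Psen2*, *Ncstn* and *Itm2b*, the probe nearest the 3′ end is the brightest one, so its setting repeats the main value. Dropping the filter on dim probes, requiring both channels above background and testing against a 2-fold change also leave every ratio unchanged. In those settings the direction could not change, only the side of the threshold. With median centring in place of loess, *Psen2* turned to 0.54, *Ide* to 0.34 and *Itm2b* to 0.47, *Aplp2* passed at 1.08 and 27 further pathway genes passed. With the probe nearest the 3′ end, *App* turned to 1.29 and *Ide* to 0.0585. With both channels required above background, *App* at −1.18 passed (adjusted p 0.0424), while *Ncstn* could not be tested, which left 1 higher and 2 lower genes. Without 1 mouse at a time, *App* ranged from −1.59 to −0.39, the lower genes from 1 to 2, the further pathway genes past the threshold from 12 to 17 and all probes past it from 4029 to 5313. Over all probes 4462 passed, 6756 with the scanner's own log ratio and 1413 with limma's test against a 2-fold change, where *Ncstn* at 1.72 did not pass (adjusted p 0.337), 1 member was higher and 7 further pathway genes passed. The causes of these changes were not tested. Each ratio sets CPE against the reference of the same array. No pairing of mice between groups was possible, because the replicate numbers lie in 1 group. Signal over background limits what can be said of *Ncstn*, the dim *App* probes and the 3′ *Bace2* probe. The reference of *Thop1* and *Gga1* was also dim, though well above background on all arrays.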
